A study of Mus musculus with 9 samples.

Results

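The CD300 receptor family was followed at the RNA level in splenic monocytes that differ in subset and in an enhancer of Cebpa. The members are the 7 genes Cd300a, Cd300c, Cd300e, Cd300lb, Cd300ld, Cd300lf and Cd300lg, found by matching the mouse Ensembl identifiers of the deposited tables to these symbols, out of 55487 identifiers. All 7 passed the filter on low counts. There were 9 libraries in 3 groups of 3. KO Ly6Clo libraries came from Ly6Clo monocytes of Cebpa +37-/- mice, which are homozygous for loss of the +37 element of Cebpa. WT Ly6Clo libraries came from Ly6Clo monocytes of wild-type mice, and WT Ly6Chi libraries from Ly6Chi monocytes of wild-type mice. All mice had the C57BL/6 strain label, and all cells were sorted from spleen without further treatment. Age, pooling of animals, the cells in which the element is lost and the sorting gates are not given in the sources used here, and Ly6Chi monocytes of Cebpa +37-/- mice were not analysed here. The question that the groups address is which RNA differs between the 2 monocyte subsets, and which differs in Ly6Clo monocytes when the Cebpa element is missing.

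CD300 proteins are cell-surface receptors of myeloid cells with a single immunoglobulin-like domain outside the cell, and several of them bind lipids such as phosphatidylserine and phosphatidylethanolamine that dying cells expose. Inhibitory members carry a long tail with tyrosine motifs that recruit the phosphatases SHP-1 (Ptpn6), SHP-2 (Ptpn11) and SHIP-1 (Inpp5d), whereas activating members have a short tail and signal through the adaptors DAP12 (Tyrobp), DAP10 (Hcst) or the Fc receptor gamma chain (Fcer1g). Ly6Chi monocytes are the classical, inflammatory subset, and Ly6Clo monocytes are the nonclassical subset that patrols vessel walls.

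Library totals ran from 48141590 to 173703361 counts, and a floor of 3 counts equalled 0.0173 to 0.0623 CPM. This floor was not put in place of any level, and a gene with no counts is given as 0. Levels are given as CPM on TMM-scaled library sizes, in the order of replicates 1, 2 and 3, and differences as log2 fold changes with their standard error (SE) from edgeR. A gene was called when the quasi-likelihood p, adjusted by Benjamini-Hochberg over 18341 genes, was under 0.05. Whether replicates came from separate animals is not stated in the labels, and the p-values thus measure only library-to-library spread, part of which may be technical. Cebpa, the targeted gene, had 4.04, 2.89 and 2.74 CPM in KO Ly6Clo, 18.2, 17.7 and 19.2 CPM in WT Ly6Clo cells and 31.5, 51.3 and 51.6 CPM in WT Ly6Chi, so its RNA was lower in every library labelled KO, with a log2 fold change of -2.51 (SE 0.27, edgeR adjusted p = 0.0152) against WT Ly6Clo. The 10 markers of Ly6Chi monocytes summed to 138 to 232 CPM in KO Ly6Clo, 236 to 276 CPM in WT Ly6Clo and 8857 to 11807 CPM in WT Ly6Chi. The 10 markers of Ly6Clo monocytes summed to 9423 to 15678 CPM in KO Ly6Clo, 13094 to 22729 CPM in WT Ly6Clo and 1561 to 6919 CPM in WT Ly6Chi. In KO against WT Ly6Clo all 10 of these Ly6Clo markers had a negative log2 fold change, with a median of -0.37 beside 0.03 over all genes. Of these 10, 0 were called and 0 had an unadjusted edgeR p under 0.05. One library stood apart: WT Ly6Chi replicate 3 had 30.04 CPM of Xist, while no other library passed 0.0417 CPM, and its 4 Y-linked check genes were at or near 0. The calls named below against WT Ly6Chi are therefore also given without it.

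Of the members, 6 lie in 1 cluster of 244 kb on chromosome 11 (GRCm38, 114890041 to 115133992). Cd300lg lies 12.8 Mb away on the same chromosome (102041509 to 102055620). Cd300a and Cd300lg are on the plus strand and the other 5 members on the minus strand. The cluster also holds Cd300c2, Cd300ld2, Cd300ld3, Cd300ld4 and Cd300ld5, which are no members by the rule. RefSeq lists Cd300c as an older name of Cd300c2, so that older use of the name Cd300c may mean either gene. No member shares an exonic base with an annotated gene on either strand. When transcripts were cut into windows of 100 bases, none of Cd300c, Cd300e, Cd300lb and Cd300lg was found in the transcripts of another gene. The share of such windows was 0.849% in Cd300a, 1.37% in Cd300ld and 0.644% in Cd300lf. It was 80.9% in Cd300ld3, 86.7% in Cd300ld4 and 100% in Cd300ld5, so the counts of these 3 genes are uncertain.

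Among the 6 members with a RefSeq promoter, the promoters of those whose RNA differed most between groups are shown, with Cd300lb as a member that differed less. Cd300lg, which was 12.1-fold lower in WT Ly6Clo than in WT Ly6Chi, had no RefSeq promoter and could not be shown. They are from RefSeq on GRCm38.p6, run from 250 bases before to 50 bases after the annotated start and are read 5′ to 3′ on the minus strand, where all 4 genes lie. Capitals mark a match to the PU.1 motif AGGAAGT or to the TATA motif TATAAA on either strand.
Cd300e (chr11:115061990-115062289): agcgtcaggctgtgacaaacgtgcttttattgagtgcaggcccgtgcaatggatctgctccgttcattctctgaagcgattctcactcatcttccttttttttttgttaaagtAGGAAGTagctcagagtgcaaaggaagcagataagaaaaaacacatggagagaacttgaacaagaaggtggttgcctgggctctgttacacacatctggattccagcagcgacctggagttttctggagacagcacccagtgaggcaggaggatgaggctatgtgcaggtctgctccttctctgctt
Cd300ld (chr11:114989837-114990136): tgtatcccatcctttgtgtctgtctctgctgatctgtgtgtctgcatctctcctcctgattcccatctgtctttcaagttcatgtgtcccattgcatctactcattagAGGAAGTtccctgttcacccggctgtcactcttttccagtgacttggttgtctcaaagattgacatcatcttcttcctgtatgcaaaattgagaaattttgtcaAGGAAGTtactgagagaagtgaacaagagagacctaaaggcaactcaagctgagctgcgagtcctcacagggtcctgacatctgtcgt
Cd300lf (chr11:115133943-115134242): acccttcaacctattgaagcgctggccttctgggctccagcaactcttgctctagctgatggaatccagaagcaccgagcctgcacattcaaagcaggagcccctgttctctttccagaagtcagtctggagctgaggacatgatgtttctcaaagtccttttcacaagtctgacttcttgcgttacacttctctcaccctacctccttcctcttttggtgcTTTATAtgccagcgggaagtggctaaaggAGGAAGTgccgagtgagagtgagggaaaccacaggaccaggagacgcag
Cd300lb (chr11:114934322-114934621): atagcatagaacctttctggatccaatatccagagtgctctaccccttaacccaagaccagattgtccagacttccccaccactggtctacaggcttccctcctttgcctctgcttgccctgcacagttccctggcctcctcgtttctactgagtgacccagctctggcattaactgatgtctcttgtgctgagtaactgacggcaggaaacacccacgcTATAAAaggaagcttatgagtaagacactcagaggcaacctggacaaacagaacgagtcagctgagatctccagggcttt
PU.1 is a transcription factor of myeloid cells. Its motif began 137 bases before the start in Cd300e, 142 and 38 bases before it in Cd300ld, and 1 base after it in Cd300lf. The RefSeq start lies at the gene's end in the deposited tables for Cd300lf, and inside the gene span by 15 bases for Cd300lb, 36 for Cd300ld and 138 for Cd300e. The TATA motif began 30 bases before the start in Cd300lb and, on the opposite strand, 28 bases before it in Cd300lf. A motif of the C/EBP family, TTGCNNAA, matched only in Cd300a, 214 bases before the start, among the 6 members with a RefSeq promoter, and the NR4A motif AAGGTCA matched in none of these 6. Cd300c held none of the 4 motifs in a window whose RefSeq start lies 8650 bases inside the gene span of the deposited tables, and Cd300lg had no entry. No 2 of these matches overlapped. Of 32851 RefSeq promoters of this length, 9.35% held the PU.1 motif, 13.6% the TATA motif, 10.8% the C/EBP motif and 4.72% the NR4A motif. A match is a run of letters and not a measured binding site.

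Measured per transcript length, Cd300e and Cd300ld were the most abundant members in both Ly6Clo groups, and Cd300a and Cd300lb in Ly6Chi monocytes. Levels in this paragraph are the deposited TPM, as mean ± SD (n = 3 libraries per group). Cd300e had 1789 ± 167 TPM in KO Ly6Clo, 1789 ± 307 TPM in WT Ly6Clo and 36.2 ± 14.04 TPM in WT Ly6Chi. Cd300ld had 1374 ± 69.6 TPM in KO Ly6Clo, 1444 ± 142 TPM in WT Ly6Clo and 183 ± 44.7 TPM in WT Ly6Chi. These 2 activating receptors made up most of the summed TPM of the 7 members in Ly6Clo monocytes of either genotype. Their part was smaller in Ly6Chi monocytes, where Cd300ld took 12.7 to 16.1%. Cd300c2, which is no member by the rule and is not in this sum, had 981 ± 133 TPM in KO Ly6Clo. It had 1145 ± 73.7 TPM in WT Ly6Clo and 283 ± 91.8 TPM in WT Ly6Chi. Cd300a, an inhibitory receptor, had 555 ± 35.8 TPM in KO Ly6Clo, 663 ± 59.97 TPM in WT Ly6Clo and 485 ± 79.6 TPM in WT Ly6Chi. Cd300lb, a DAP12-coupled activating receptor, had 404 ± 55.6 TPM in KO Ly6Clo, 542 ± 44.9 TPM in WT Ly6Clo and 377 ± 46.3 TPM in WT Ly6Chi. The means of these 2 members differed far less between Ly6Clo and Ly6Chi monocytes than those of Cd300e and Cd300ld, and were highest in WT Ly6Clo. Cd300lf, an inhibitory receptor that also takes part in the uptake of dying cells, had 147 ± 8.44 TPM in KO Ly6Clo, 47.2 ± 7.46 TPM in WT Ly6Clo and 50.6 ± 12.2 TPM in WT Ly6Chi. Cd300lg, known as a receptor of endothelial cells, had 6.71 ± 2.42 TPM in KO Ly6Clo, 7.01 ± 2.77 TPM in WT Ly6Clo and 82.8 ± 1.32 TPM in WT Ly6Chi. Cd300c was the lowest member on average in each group, at 4.31 ± 0.669 TPM in KO Ly6Clo, 5.18 ± 2.04 TPM in WT Ly6Clo and 5.11 ± 3.59 TPM in WT Ly6Chi.

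The order of the TPM levels within a library was the same in all 6 Ly6Clo libraries: Cd300e, Cd300ld, Cd300a, Cd300lb, Cd300lf, Cd300lg and Cd300c, from high to low. In WT Ly6Chi it was Cd300a, Cd300lb, Cd300ld, Cd300lg, Cd300lf, Cd300e and Cd300c in replicates 1 and 3, and replicate 2 had Cd300e above Cd300lf. Neighbours in the order were not always apart beyond their spread. Cd300lf and Cd300e overlapped across the WT Ly6Chi libraries, with 38.4 to 62.8 TPM for Cd300lf and 20.1 to 45.7 TPM for Cd300e. Cd300a and Cd300lb also overlapped there, with 404 to 563 TPM for Cd300a and 348 to 430 TPM for Cd300lb. The summed TPM of the 7 members was 4461, 4103 and 4277 in KO Ly6Clo, 5122, 4188 and 4185 in WT Ly6Clo and 1050, 1385 and 1225 in WT Ly6Chi. Both Ly6Clo groups lay above every WT Ly6Chi library and overlapped each other.

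Cd300e took 39.04 to 44.4% of the summed member TPM in KO Ly6Clo, 37.4 to 41.8% in WT Ly6Clo and 1.91 to 3.73% in WT Ly6Chi. Cd300a took 12.7 to 13.3% in KO Ly6Clo, 14.3 to 15.1% in WT Ly6Clo and 38.5 to 40.6% in WT Ly6Chi. Cd300lf took 3.23 to 3.76% in KO Ly6Clo, 0.782 to 1.31% in WT Ly6Clo and 2.77 to 5.98% in WT Ly6Chi. For Cd300lf the share was thus higher in every KO Ly6Clo library than in every WT Ly6Clo library, while for Cd300e the 2 Ly6Clo groups overlapped.

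**Figure D1:**
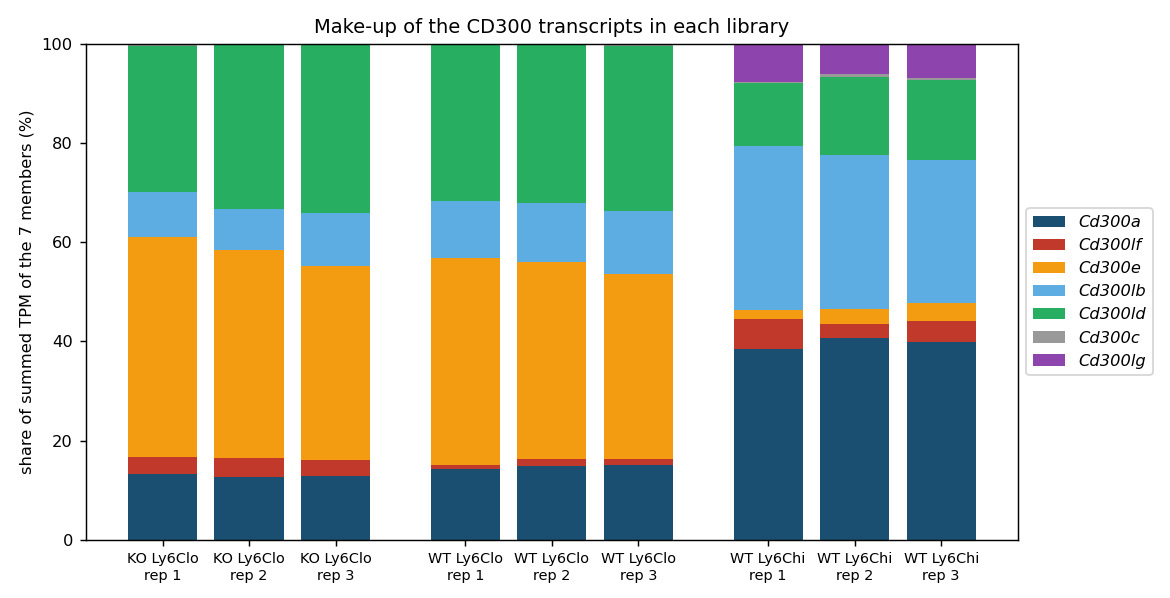
Stacked bars give each member's share, in percent, of the summed TPM of the 7 members in each of the 9 libraries, with KO Ly6Clo on the left, WT Ly6Clo in the middle and WT Ly6Chi on the right. Cd300e and Cd300ld fill most of each Ly6Clo bar, and Cd300a and Cd300lb most of each WT Ly6Chi bar; the Cd300c and Cd300lg slices of the Ly6Clo bars, at most 0.212% each, are too thin to see.

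In Ly6Clo monocytes without the Cebpa element, 1 inhibitory receptor, Cd300lf, stood 2.89-fold above wild type without passing the test, and none of the 7 members was called. Of all 18341 genes tested in KO against WT Ly6Clo, 13 were called by edgeR, which is 0.0709%, and those called higher made up 0.0109%. Cd300lf had 234, 247 and 210 CPM in KO Ly6Clo, against 64.8, 98.7 and 75.3 CPM in WT Ly6Clo. Every KO library was above every WT Ly6Clo library. Groups that did not overlap, with KO higher, were found for 5.22% of all genes. The log2 fold change of Cd300lf was 1.53 (SE 0.22, 95% interval 1.03 to 2.04), with an unadjusted p of 6.9e-05 and an edgeR adjusted p of 0.0529. DESeq2 gave an adjusted p of 2.0e-07, where 0.796% of genes were called higher, and limma-voom gave 0.0356, where 0.0273% were. Of 17 alternatives 4 called Cd300lf, and with the replicate number as a block the edgeR adjusted p was 0.148. The library numbers of the deposited tables fall into 2 runs of 5 and 4 libraries, and within these the log2 ratio of the mean CPM of Cd300lf was 1.56 and 1.48. The first of these ratios compares 2 KO with 2 WT Ly6Clo libraries, and the second only 1 with 1.

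Cd300lf is also known from neutrophils, dendritic cells, macrophages and mast cells, so the markers of those cells are given beside it. The 10 neutrophil markers summed to 172 to 361 CPM in KO Ly6Clo and 361 to 467 CPM in WT Ly6Clo, with a median log2 fold change of 2.35 over the list, and Ngp was at 0 in WT Ly6Clo. The 8 markers of conventional dendritic cells summed to 268 to 775 CPM in KO Ly6Clo and 213 to 420 CPM in WT Ly6Clo. The 9 markers of red pulp macrophages summed to 143 to 251 CPM in KO Ly6Clo and 184 to 310 CPM in WT Ly6Clo. The 9 markers of mast cells, basophils and eosinophils summed to 7.28 to 63.2 CPM in KO Ly6Clo and 1.41 to 70.1 CPM in WT Ly6Clo. The sums of the KO and WT Ly6Clo libraries overlapped for each of these 4 lists. For neutrophil markers they barely did, with 361.4 CPM the highest KO sum and 361.0 CPM the lowest WT Ly6Clo sum. Of these 10 markers, 6 had a positive and 4 a negative log2 fold change. All 9 red pulp macrophage markers had a negative one, with a median of -0.82. Of the 8 dendritic cell markers 5 were positive and 3 negative. Of the 6 tested markers of mast cells, basophils and eosinophils 4 were positive and 2 negative. Between these groups edgeR called 0 genes of the 4 lists, beside 0.0709% of all genes. An unadjusted edgeR p under 0.05 was found for 7, beside 6.16% of all genes. These were 5 of the 10 neutrophil and 2 of the 8 dendritic cell markers. The other lists had 0 of 9 tested red pulp macrophage markers and 0 of 6 tested mast cell, basophil and eosinophil markers. DESeq2 called Ngp higher and, of the dendritic cell markers, Dpp4 and Cd209a, 1 higher and 1 lower, and limma-voom called none. Over all genes, DESeq2 called 0.796% higher and limma-voom 0.0273%. The part of these cells in the Cd300lf difference was not tested. In sorted bulk RNA, fewer cells of a type and less RNA per cell cannot be told apart. Rab37, which overlaps the span of Cd300lf on the opposite strand without sharing an exonic base, had 0.0621, 10.98 and 11.01 CPM in KO Ly6Clo and 3.15, 5.45 and 7.62 CPM in WT Ly6Clo. Rab37 overlapped between these groups, and its part in the Cd300lf difference was not tested.

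**Figure D2:**
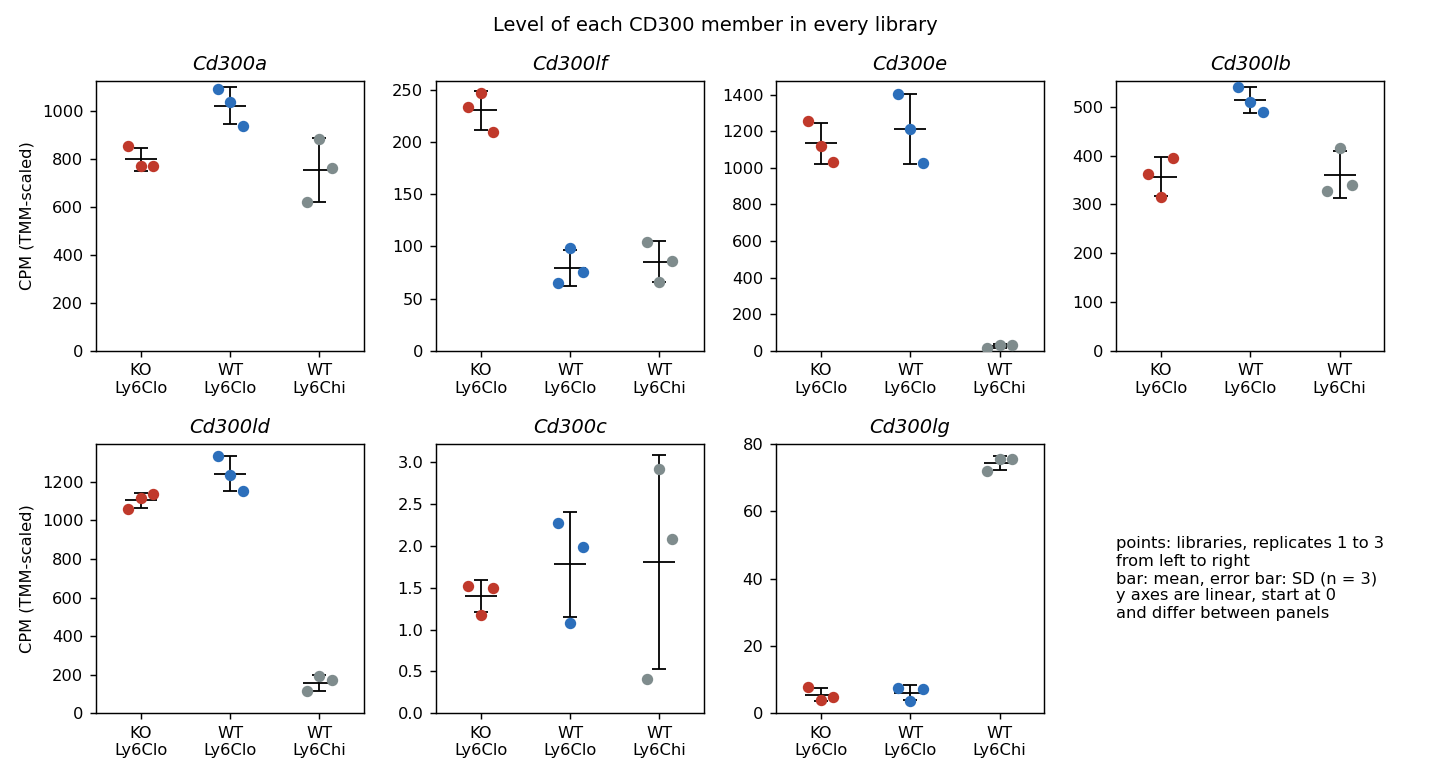
Each panel shows the CPM (linear axis from 0) of 1 member in the 3 KO Ly6Clo libraries on the left, the 3 WT Ly6Clo libraries in the middle and the 3 WT Ly6Chi libraries on the right, with bars for the mean and error bars for the SD (n = 3). Cd300lf is highest in the KO Ly6Clo libraries at 210 to 247 CPM, Cd300e and Cd300ld are high in both Ly6Clo groups, and Cd300lg is high in WT Ly6Chi at 71.9 to 75.7 CPM.

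The other inhibitory receptor, Cd300a, had 853, 769 and 771 CPM in KO Ly6Clo and 1091, 1035 and 936 CPM in WT Ly6Clo. All 3 KO libraries were below all 3 WT libraries, opposite to Cd300lf, but the difference was not called, at a log2 fold change of -0.36 (SE 0.16, edgeR adjusted p = 0.815). Among the activating receptors, Cd300lb had 361, 314 and 395 CPM in KO Ly6Clo and 541, 510 and 488 CPM in WT Ly6Clo. Again no KO library reached a WT library, and the log2 fold change was -0.52 (SE 0.15, 95% interval -0.87 to -0.18, unadjusted p = 0.0078, edgeR adjusted p = 0.522). Cd300ld, which pairs with the Fc receptor gamma chain, had 1057, 1115 and 1136 CPM in KO Ly6Clo and 1335, 1234 and 1153 CPM in WT Ly6Clo. These groups did not overlap either, by a margin smaller than the spread within either group, and the log2 fold change was -0.17 (SE 0.19, edgeR adjusted p = 1.0). Groups that did not overlap, with KO lower, were found for 5.70% of all genes and for 3 of the 7 members.

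Cd300e had 1255, 1116 and 1032 CPM in KO Ly6Clo and 1405, 1211 and 1024 CPM in WT Ly6Clo. The groups overlapped, and the 95% interval of the log2 fold change ran from -0.75 to 0.56. Cd300lg had 7.85, 4.12 and 4.74 CPM in KO Ly6Clo and 7.54, 3.65 and 7.26 CPM in WT Ly6Clo, and Cd300c had 1.52, 1.18 and 1.49 CPM in KO Ly6Clo and 2.27, 1.07 and 1.99 CPM in WT Ly6Clo. Both were low and overlapped between the genotypes, with log2 fold changes of -0.14 (SE 0.33) for Cd300lg and -0.35 (SE 0.68) for Cd300c. The median log2 fold change of the 7 members was -0.17, beside 0.03 over all genes tested, and 2 of the 7, Cd300lf and Cd300lb, had an unadjusted edgeR p under 0.05, as 6.16% of all genes did.

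In wild-type mice, Ly6Clo monocytes held far more RNA of the activating receptors Cd300e and Cd300ld than Ly6Chi monocytes and far less of Cd300lg, and these 3 of the 7 members were called. Over all genes, 1.88% were called higher and 1.62% lower in WT Ly6Clo. Cd300e had 1405, 1211 and 1024 CPM in WT Ly6Clo, against 13.5, 29.6 and 31.5 CPM in WT Ly6Chi. The groups were far apart, and Cd300e was 48.8-fold higher in WT Ly6Clo, with a log2 fold change of 5.61 (SE 0.35, edgeR adjusted p = 6.1e-04). Without WT Ly6Chi replicate 3 the log2 fold change was 5.83 (edgeR adjusted p = 0.0044). Cd300ld had 1335, 1234 and 1153 CPM in WT Ly6Clo, against 114, 192 and 172 CPM in WT Ly6Chi. No libraries overlapped, and Cd300ld was 7.79-fold higher in WT Ly6Clo, with a log2 fold change of 2.96 (SE 0.21, edgeR adjusted p = 7.5e-04), or 3.04 on the log2 scale without WT Ly6Chi replicate 3 (edgeR adjusted p = 0.0058). Within the 2 runs of library numbers the log2 ratio was 6.60 and 5.07 for Cd300e and 3.498 and 2.66 for Cd300ld. The first run held 2 WT Ly6Clo libraries and 1 WT Ly6Chi library, and the second run 1 WT Ly6Clo and 2 WT Ly6Chi libraries.

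WT Ly6Chi replicate 1 had the lowest Cd300e and Cd300ld of the 3 Ly6Chi libraries and also the lowest sum of the 10 Ly6Clo monocyte markers. That sum was 1561 CPM in replicate 1, 6395 CPM in replicate 2 and 6919 CPM in replicate 3, and no marker of the list was at 0. Without WT Ly6Chi replicate 1 the log2 fold change was 5.32 for Cd300e and 2.78 for Cd300ld. The part of Ly6Clo markers in the Ly6Chi libraries in these values was not tested.

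Cd300lg had 7.54, 3.65 and 7.26 CPM in WT Ly6Clo, against 71.9, 75.4 and 75.7 CPM in WT Ly6Chi. The 3 Ly6Chi libraries lay close together and well above the others, and Cd300lg was 12.1-fold lower in WT Ly6Clo, with a log2 fold change of -3.60 (SE 0.36, edgeR adjusted p = 0.0019). Without WT Ly6Chi replicate 3 the log2 fold change was -3.57 (edgeR adjusted p = 0.0107), and within the 2 runs the log2 ratio was -3.68 and -3.38. Each of these ratios rests on 1 library on 1 side, WT Ly6Chi in the first run and WT Ly6Clo in the second. Because Cd300lg is known from endothelial cells, 12 endothelial markers were summed, and they gave 1.12 to 7.02 CPM in WT Ly6Clo and 0.980 to 4.26 CPM in WT Ly6Chi. Tek, Esam and Clec14a were at 0 in all 3 WT Ly6Chi libraries, and Esam and Clec14a also in all 3 WT Ly6Clo libraries. Only 4 of the 12 passed the filter on low counts. The part of endothelial cells in the Cd300lg difference was not tested.

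The remaining 4 members were not called between the wild-type subsets. Cd300lb had 541, 510 and 488 CPM in WT Ly6Clo cells and 328, 416 and 339 CPM in WT Ly6Chi, and Cd300a had 1091, 1035 and 936 CPM in WT Ly6Clo cells and 618, 884 and 763 CPM in WT Ly6Chi. Both were higher in every WT Ly6Clo library than in every WT Ly6Chi library. Over all genes, groups did not overlap for 13.6% with WT Ly6Clo higher and for 14.7% with WT Ly6Clo lower. The log2 fold changes were 0.51 (SE 0.15, edgeR adjusted p = 0.122) for Cd300lb and 0.44 (SE 0.16, edgeR adjusted p = 0.194) for Cd300a, or 0.48 for Cd300lb and 0.46 for Cd300a without WT Ly6Chi replicate 3. Cd300lf had 64.8, 98.7 and 75.3 CPM in WT Ly6Clo cells and 104, 65.5 and 86.1 CPM in WT Ly6Chi, and Cd300c had 2.27, 1.07 and 1.99 CPM in WT Ly6Clo cells and 0.411, 2.92 and 2.08 CPM in WT Ly6Chi. Both overlapped between the subsets, and the 95% intervals of the log2 fold changes were -0.59 to 0.39 for Cd300lf and -1.55 to 1.51 for Cd300c. The median over the 7 members was 0.44, beside -0.00 over all genes.

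**Figure D3:**
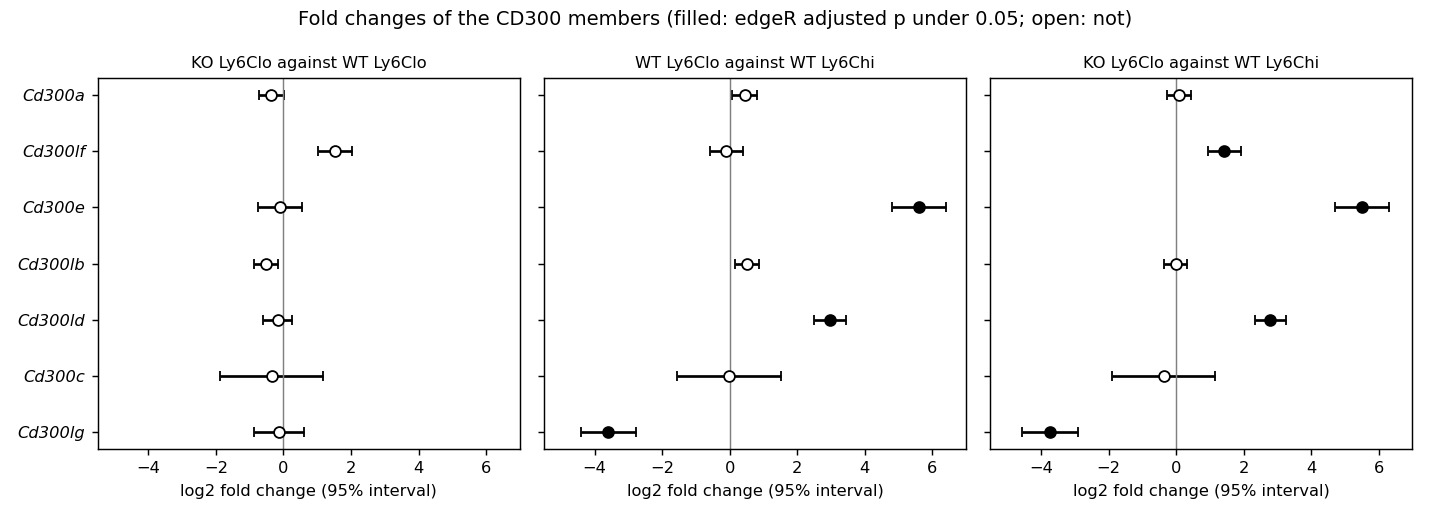
Points give the log2 fold change of each member with its 95% interval in KO against WT Ly6Clo on the left, WT Ly6Clo against WT Ly6Chi in the middle and KO Ly6Clo against WT Ly6Chi on the right; filled points have an edgeR adjusted p under 0.05. Cd300lf lies at 1.53 on the left and 1.43 on the right but at -0.10 in the middle, while Cd300e, Cd300ld and Cd300lg keep their place in the middle and right panels.

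KO Ly6Clo against WT Ly6Chi shares libraries with both comparisons above, so its values are set beside theirs and are no separate evidence. Over all genes, 2.06% were called higher and 2.46% lower in KO Ly6Clo, and of the members 3 were called higher and 1 lower. Cd300lf had 210 to 247 CPM in KO Ly6Clo, against 65.5 to 104 CPM in WT Ly6Chi, without overlap, as for 11.3% of all genes with KO Ly6Clo higher. It rose 2.70-fold (log2 fold change 1.43, SE 0.22, edgeR adjusted p = 0.0086), and all 17 alternatives called it, with an edgeR adjusted p of 0.0421 without WT Ly6Chi replicate 3. Within the 2 runs of library numbers the log2 ratio of Cd300lf was 1.20 and 1.47, with 1 WT Ly6Chi library in the first run and 1 KO Ly6Clo library in the second. Cd300e was higher by 5.51 on the log2 scale (SE 0.35, edgeR adjusted p = 2.6e-04) and Cd300ld by 2.79 (SE 0.21, edgeR adjusted p = 3.1e-04), and Cd300lg was lower with a log2 fold change of -3.74 (SE 0.37, edgeR adjusted p = 0.0010). Without WT Ly6Chi replicate 3 these values were 5.73 for Cd300e, 2.86 for Cd300ld and -3.72 for Cd300lg. The 12 endothelial markers summed to 3.66 to 9.79 CPM in KO Ly6Clo, where Cd300lg had 4.12 to 7.85 CPM. Cd300a, at 769 to 853 CPM in KO Ly6Clo and 618 to 884 CPM in WT Ly6Chi, and Cd300lb, at 314 to 395 CPM in KO Ly6Clo and 328 to 416 CPM in WT Ly6Chi, overlapped between these groups. Their log2 fold changes were 0.08 (95% interval -0.28 to 0.44) for Cd300a and -0.02 (95% interval -0.36 to 0.33) for Cd300lb. Cd300c had a log2 fold change of -0.37 (SE 0.68). The median over the 7 members was 0.08, beside 0.04 over all genes.

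Across the cluster, the genes between Cd300a and Cd300lf did not share 1 pattern. Cd300c2, an activating receptor that pairs with DAP12 and the Fc receptor gamma chain, had 387, 333 and 416 CPM in KO Ly6Clo, 474, 472 and 476 CPM in WT Ly6Clo cells and 72.7, 142 and 141 CPM in WT Ly6Chi. It was higher in WT Ly6Clo than in WT Ly6Chi (log2 fold change 2.0, SE 0.25, edgeR adjusted p = 0.0047), as its neighbour Cd300ld was, while Cd300c on the other side of Cd300ld stayed under 3 CPM in all 9 libraries. The value for Cd300c2 was 2.16 without WT Ly6Chi replicate 3 (edgeR adjusted p = 0.0176). Between the genotypes Cd300c2 was not called (log2 fold change -0.32, SE 0.24). Cd300ld3 had 1.78, 1.26 and 1.26 CPM in KO Ly6Clo, 1.39, 1.11 and 1.76 CPM in WT Ly6Clo cells and 0.0358, 0.167 and 0 CPM in WT Ly6Chi, and Cd300ld5 had 68 counts in all in KO Ly6Clo, 141 in WT Ly6Clo and 0 in WT Ly6Chi. These 2 genes were near or at 0 in Ly6Chi monocytes, with the uncertainty of shared sequence given above. Cd300ld2 and Cd300ld4 did not pass the filter. The promoters of Cd300ld4 and Cd300ld5 are identical over the 300 bases, and that of Cd300ld is 65.9 to 66.0% identical to those of Cd300ld3, Cd300ld4 and Cd300ld5. Gm11698, Gm11699 and Rab37, the other genes of the cluster that passed the filter, stayed at 11.01 CPM or less, and none was called in any of the 3 comparisons.

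**Figure D4:**
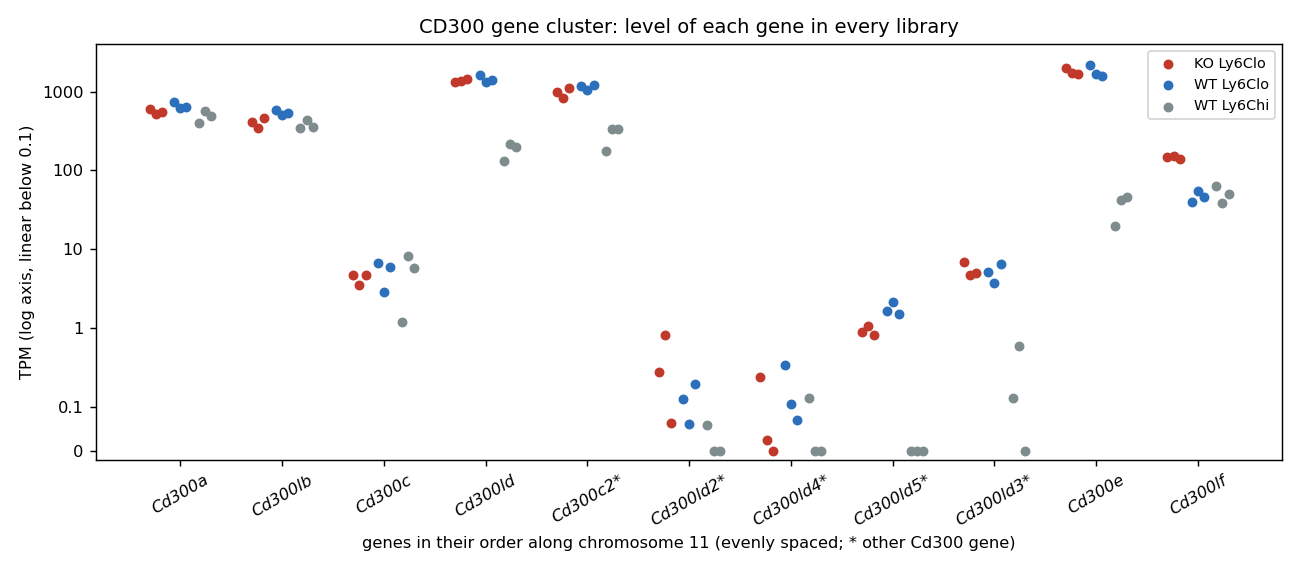
Each point is the TPM (log axis, linear below 0.1) of 1 gene in 1 library, with the 11 Cd300 genes of the cluster in their order along the chromosome and, within a gene, KO Ly6Clo on the left, WT Ly6Clo in the middle and WT Ly6Chi on the right; an asterisk marks genes that are no members. Cd300ld, Cd300c2 and Cd300e are lower in WT Ly6Chi. Cd300a and Cd300lb differ little in height between the groups on this log axis, and Cd300c and the genes from Cd300ld2 to Cd300ld3 are low throughout.

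The adaptors and phosphatases through which CD300 receptors signal were present in all groups. Tyrobp had 1760, 992 and 1280 CPM in KO Ly6Clo, 1756, 1347 and 1634 CPM in WT Ly6Clo cells and 1653, 1753 and 1554 CPM in WT Ly6Chi. Fcer1g had 1974, 1269 and 1288 CPM in KO Ly6Clo, 1606, 1317 and 1546 CPM in WT Ly6Clo cells and 1285, 1121 and 1171 CPM in WT Ly6Chi. Neither adaptor was called in any comparison, nor was Hcst at 23.4 to 45.3 CPM. Ptpn6, the phosphatase SHP-1, averaged 1771 ± 288 CPM in KO Ly6Clo, 2058 ± 69.0 CPM in WT Ly6Clo and 1277 ± 105 CPM in WT Ly6Chi (SD, n = 3 each). It was higher in WT Ly6Clo than in WT Ly6Chi (log2 fold change 0.69, SE 0.15, edgeR adjusted p = 0.0416), but not called without WT Ly6Chi replicate 3 (0.72, edgeR adjusted p = 0.118). Ptpn11 and Inpp5d were not called. Of 19 signalling genes tested, 0 were called in KO against WT Ly6Clo by edgeR, DESeq2 or limma-voom, and 0 had an unadjusted p under 0.05 in any of the 3. Over all genes, edgeR called 0.0709% in this comparison, and 6.16% had an unadjusted edgeR p under 0.05. In WT Ly6Clo against WT Ly6Chi 2 were called higher, Ptpn6 and the kinase Fyn (log2 fold change 2.19, SE 0.25, edgeR adjusted p = 0.0033), and none lower. The shares over all genes were 1.88% higher and 1.62% lower. In KO Ly6Clo against WT Ly6Chi only Fyn was called (log2 fold change 2.33, SE 0.25, edgeR adjusted p = 0.0015), beside 2.06% higher and 2.46% lower over all genes. Fyn was also called without WT Ly6Chi replicate 3, at 2.42 in KO Ly6Clo and 2.29 in WT Ly6Clo. Over the list, the median log2 fold change was -0.08 in KO against WT Ly6Clo (0.03 over all genes), 0.28 in WT Ly6Clo against WT Ly6Chi (-0.00 over all genes) and 0.23 in KO Ly6Clo against WT Ly6Chi (0.04 over all genes).

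Of 16 tested genes of other paired and immunoglobulin-like receptors of myeloid cells, edgeR and limma-voom called 0 in KO against WT Ly6Clo. Of all genes tested, edgeR called 0.0709% in this comparison. Siglece was the 1 gene with an edgeR unadjusted p under 0.05 (log2 fold change 1.37, SE 0.36, edgeR adjusted p = 0.434), beside 6.16% of all genes. DESeq2 called Siglece higher, as it did 0.796% of all genes. In WT Ly6Clo against WT Ly6Chi 5 were called higher and 1 lower, beside 1.88% higher and 1.62% lower over all genes. Those named by the smallest adjusted p were Pilra (log2 fold change 2.02, SE 0.19), Lilra5 (3.84, SE 0.36), Treml4 (2.47, SE 0.33) and Pilrb2 (1.74, SE 0.25). In KO Ly6Clo against WT Ly6Chi 5 were called higher and 2 lower, beside 2.06% higher and 2.46% lower over all genes. There the log2 fold changes were 1.87 (SE 0.19) for Pilra and 3.58 (SE 0.36) for Lilra5. Without WT Ly6Chi replicate 3, 4 were called higher and 0 lower in either comparison, namely Pilra, Lilra5, Treml4 and Pilrb2. Receptors outside the CD300 family thus also differed between the subsets, as Cd300e, Cd300ld and Cd300lg did.

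Likeness to other genes was measured as the root mean square difference of log2(CPM + 1) over the 9 libraries after centring, among 9162 genes with a mean of at least 5 CPM. Among the nearest genes to Cd300lf were Aig1 and Afap1, at 0.32 and 0.36, beside a spread of Cd300lf itself of 0.74. Aig1 had 14.5 ± 1.91 CPM in KO Ly6Clo, 5.29 ± 0.691 CPM in WT Ly6Clo and 7.33 ± 1.02 CPM in WT Ly6Chi (SD, n = 3 each). KO Ly6Clo was its highest group, as for Cd300lf. Because Aig1 was picked for likeness over these same libraries, this is no separate evidence. The nearest to Cd300e were Dusp16, Adrb1 and Tgm2, at 0.73, 0.80 and 0.85, with a spread of Cd300e of 2.65. For Cd300ld they were Jade2, S1pr5 and Sh2d1b1, at 0.18, 0.27 and 0.28 with a spread of 1.38, and for Cd300lg Stox2, Ifi211 and Stx3, at 0.34, 0.35 and 0.36 with a spread of 1.68. Cd300a was nearest to Adssl1, Manbal and Aup1, at 0.09 to 0.10 with a spread of 0.24. Cd300lb was nearest to Zfand2b, Ifnar2 and Il10rb, at 0.08 to 0.12 with a spread of 0.27. Cd300c was below the minimum level for this measure.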

How the data were processed

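Each library has 1 deposited table of raw read counts per gene in whole numbers, and the CPM, FPKM and TPM columns deposited beside them by the authors equalled values recomputed from the counts and gene lengths (largest difference 6.5e-11). Libraries were made from total RNA with a kit that does not mark strand, per the labels' protocols. The submitters' processing notes name the build GRCm38 (mm10) and the tools bcl2fastq, Salmon 0.8.2, STAR 2.5.1a, limma, edgeR, and featureCounts 1.4.6-p5 of Subread. Their roles, and how reads of several genes were assigned, are not given in the sources used here. Symbols came from GENCODE M21 for 55141 IDs (99.4%), and promoters from RefSeq (GRCm38.p6), with an entry for 6 of the 7 members and 10 of the 12 Cd300 genes. Members, gene lists and tests were chosen with earlier results of these data known.

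The main test was edgeR 4.0.16 (R 4.3.3), with genes kept by filterByExpr with groups given and a minimum count of 10. It used TMM scaling and a term for each of the 3 groups with all 9 libraries in the fit. Quasi-likelihood p-values were adjusted by Benjamini-Hochberg over 18341 genes. On simulated counts for KO against WT Ly6Clo, it called 13 of 100 genes changed by 1 on the log2 scale. Of 100 genes changed by 2 on that scale it called 64, and 6 unchanged genes were called. A gene that is not called may therefore still have changed. Levels are CPM on TMM-scaled sizes; deposited TPM served for comparison between genes; FPKM was not used. Alternatives were RLE scaling, 2 other filters, DESeq2 1.42.0, limma-voom (limma 3.58.1), a fit of the 2 groups compared, a run term (2 runs of library numbers), the replicate number as a block and each library left out. Replicate numbers come from the titles. Deviations of same-numbered libraries correlated at 0.175 to 0.573 in KO against WT Ly6Clo and 0.136 to 0.444 in WT Ly6Clo against WT Ly6Chi. In KO Ly6Clo against WT Ly6Chi they correlated at -0.0159 to 0.371. In the first 2 comparisons replicates 1 and 2 correlated best with their own number, but replicate 3 did not. Whether the numbers pair the libraries is thus not settled, and the replicate block is an alternative only. The chi-square per gene between replicates was 55.2 to 482, so no library was a copy of another library of its own group. Libraries of different groups were not compared in this way. Floors of 3 counts cover counting error only.

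Named are all 7 members, other Cd300 genes and cluster genes that passed the filter, Cebpa, fixed adaptors and phosphatases, up to 4 called genes per list and the 3 most alike genes per member with at least 5 CPM. The rule spoke of genes between the first and last member on the chromosome; since Cd300lg lies apart, this was narrowed to the cluster of 6 after the coordinates were seen. Siglece was chosen after its value was seen. A result that this rule names is not reported here.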

Additional observations from a re-analysis of the deposited data

How the results depend on the processing

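The members called in WT Ly6Clo against WT Ly6Chi (Cd300e, Cd300ld, Cd300lg) and in KO Ly6Clo against WT Ly6Chi (these and Cd300lf) were called in all 17 alternatives, with the replicate block too. DESeq2 added Cd300lb in WT Ly6Clo against WT Ly6Chi (adjusted p 0.0266). In KO against WT Ly6Clo, 1 member (Cd300lf) was called by DESeq2, by limma-voom, with a filter of 1 CPM in 3 libraries (edgeR adjusted p 0.0369) and with no filter (0.0144), and 0 by the other alternatives. With each library left out, its log2 fold change was 1.39 to 1.73 and its edgeR adjusted p 0.0788 to 0.306; with the replicate block it was 1.53 (adjusted p 0.148), and the block changed no call of a member. The cause of these changes was not tested.

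Counts of called genes moved more. In KO against WT Ly6Clo they were 13, and 277 with DESeq2, 27 with the CPM filter, 54 with no filter, 0 in the fit of the 2 groups alone (859 at an unadjusted p under 0.05) and 2 to 21 with a library left out. In WT Ly6Clo against WT Ly6Chi they were 643, and 1968 with DESeq2 and 239 to 847 with a library left out. In KO Ly6Clo against WT Ly6Chi they were 829, and 1950 with DESeq2 and 379 to 818 with a library left out.

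Signs turned for uncalled members near 0. Cd300c turned in WT Ly6Clo against WT Ly6Chi with limma-voom (0.24), no filter (0.013), the replicate block (0.082) and the run term (0.51), and in KO Ly6Clo against WT Ly6Chi with limma-voom (0.039) and the run term (0.18). Cd300lb turned in KO Ly6Clo against WT Ly6Chi with no filter (0.020) and the run term (0.019). With a library left out, the ranges that crossed 0 were -0.21 to 0.0045 for Cd300e in KO Ly6Clo against WT Ly6Clo, -0.48 to 0.026 for Cd300lg in KO Ly6Clo against WT Ly6Clo, -0.49 to 0.52 for Cd300c in WT Ly6Clo against WT Ly6Chi, -0.29 to 0.080 for Cd300lf in WT Ly6Clo against WT Ly6Chi, -0.048 to 0.21 for Cd300a in KO Ly6Clo against WT Ly6Chi, -0.84 to 0.16 for Cd300c in KO Ly6Clo against WT Ly6Chi and -0.095 to 0.10 for Cd300lb in KO Ly6Clo against WT Ly6Chi. Cd300c had 0.411 to 2.92 CPM, and its 95% intervals were the widest of the 7 members in each comparison.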

Other observations

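The other marker lists had the following summed levels over their genes, as the range over the 3 libraries of a group. Markers of plasmacytoid dendritic cells summed to 89.3 to 128 CPM in KO Ly6Clo, 117 to 141 CPM in WT Ly6Clo and 182 to 228 CPM in WT Ly6Chi. B cell markers summed to 141 to 551 CPM in KO Ly6Clo, 488 to 703 CPM in WT Ly6Clo and 403 to 611 CPM in WT Ly6Chi. T cell markers summed to 29.97 to 141 CPM in KO Ly6Clo, 54.9 to 158 CPM in WT Ly6Clo and 92.7 to 158 CPM in WT Ly6Chi. NK cell markers summed to 8.61 to 254 CPM in KO Ly6Clo, 44.7 to 191 CPM in WT Ly6Clo and 13.1 to 46.3 CPM in WT Ly6Chi. Platelet markers summed to 50.2 to 82.8 CPM in KO Ly6Clo, 44.4 to 76.4 CPM in WT Ly6Clo and 29.04 to 40.7 CPM in WT Ly6Chi. Erythroid markers summed to 1.78 to 7574 CPM in KO Ly6Clo, 405 to 3355 CPM in WT Ly6Clo and 134 to 229 CPM in WT Ly6Chi.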
